A study of Mus musculus with 6 samples.

Results

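The 5 genes described here, Apoe, Clu, Apod, Abca1 and Lcat, encode secreted lipid carriers and proteins that load or remodel lipid particles. They were taken by symbol from the 19465 genes listed for every section, and all 5 were present in all 6 sections. The samples were formalin-fixed, paraffin-embedded coronal brain sections of untreated male C57BL/6J mice, an inbred wild-type strain, profiled with the Visium assay, which captures probe-labelled RNA on a grid of barcoded spots. The 3 ages were compared with 2 sections each, which the labels call biological replicates. The P21 mice were 21 days old and bred from purchased parents, the adult mice were 12 to 15 weeks old and came from a commercial breeder, and the aged mice were 28 months old and came from the National Institute on Aging. The paper itself names only Jackson Laboratory as the source of the mice. P21 and adult sections were placed on version 1 slides, and aged sections were transferred with the CytAssist instrument onto version 2 slides. The Space Ranger software also differed, 2.0.0 for P21 and adult and 3.1.1 for aged sections. The paper names an enhanced probe design for version 2. In the aged group the effects of age, mouse source, slide, probes and software cannot be told apart. The source also differed between P21 and adult mice, so age and source cannot be told apart there either. A spot holds RNA of several cells, so fewer cells of a type and less RNA per cell cannot be told apart in any value given here.

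The brain makes its own lipoproteins, because plasma lipoproteins do not cross the blood-brain barrier. Astrocytes are the main source of apolipoprotein E, and Abca1 moves cholesterol and phospholipid out of the cell onto it, after which Lcat esterifies the cholesterol so that the particle matures. Apolipoprotein D is made in myelinating glia and in perivascular and meningeal cells, clusterin is made largely by astrocytes and ependyma, and microglia that take up myelin debris also turn on Apoe.

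All 5 genes are protein coding, and their positions are given on the GRCm38 build. Apoe lies at chr7:19696109-19699188 on the minus strand, spans 3080 bases and has 4 exons in its principal transcript. Clu lies at chr14:65968483-65981547 on the plus strand with 9 exons. Apod lies at chr16:31296192-31314808 on the minus strand with 6 exons. Abca1 lies at chr4:53030787-53159895 on the minus strand and is by far the longest, at 129109 bases and 50 exons. Lcat lies at chr8:105939551-105943382 on the minus strand with 6 exons.

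The 250 bases before the transcription start are shown for Apod, Apoe and Abca1, the members with the largest difference between aged and adult sections in the fibre tracts, so that the letters of the promoters can be read beside the levels. They are RefSeq sequence of GRCm38.p6, written 5′ to 3′ on the gene's own strand, and 4 of the 5 genes had an entry in the table of promoters. Capitals mark matches to a motif, searched on both strands. The motifs were the TATA box, read as TATAAA, the E-box that several leucine zipper factors bind, read as CACGTG, the GC box of Sp1, read as GGGCGG, the CCAAT box, and the nuclear receptor core site, read as AGGTCA, and they do not overlap in these windows. The Apod window is chr16:31314809-31315058, the Apoe window chr7:19699189-19699438 and the Abca1 window chr4:53159896-53160145.
Apod: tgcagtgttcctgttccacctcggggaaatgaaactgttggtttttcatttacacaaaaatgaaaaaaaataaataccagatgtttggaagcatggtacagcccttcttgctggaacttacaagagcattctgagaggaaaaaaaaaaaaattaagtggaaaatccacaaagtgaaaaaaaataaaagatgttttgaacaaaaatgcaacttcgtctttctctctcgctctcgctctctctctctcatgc
Apoe: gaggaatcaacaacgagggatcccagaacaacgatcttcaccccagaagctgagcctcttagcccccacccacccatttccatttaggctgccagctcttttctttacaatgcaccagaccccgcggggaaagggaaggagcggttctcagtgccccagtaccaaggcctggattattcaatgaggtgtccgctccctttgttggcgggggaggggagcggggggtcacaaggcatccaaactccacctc
Abca1: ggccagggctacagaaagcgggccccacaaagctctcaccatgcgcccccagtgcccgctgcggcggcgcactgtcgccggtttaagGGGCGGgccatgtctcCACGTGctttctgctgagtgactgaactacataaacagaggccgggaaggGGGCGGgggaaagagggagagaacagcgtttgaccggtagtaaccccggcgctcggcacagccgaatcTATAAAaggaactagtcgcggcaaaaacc
The 3 windows differ in composition, with a GC content of 36.4% before Apod, 57.2% before Apoe and 61.6% before Abca1. None of the 5 motifs occurred in the Apod or Apoe window. The Abca1 window held a TATA box 29 bases before the start, GC boxes 97 and 163 bases before it, and an E-box 147 bases before it. Among 32536 promoter windows of the same length, the TATA box occurred in 12.3%, the GC box in 33.0%, the E-box in 6.04%, the CCAAT box in 33.8% and the nuclear receptor site in 14.0%. Lcat, whose sequence is not shown, had a CCAAT box on the opposite strand 80 bases before its start. Clu had no entry in the table.

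The sections held 42422997 to 106783660 unique molecules (UMIs) after removal of 1 to 4 spots each, with 20336 spots kept in all and a median of 12074.5 to 25535 UMIs per spot. Over the whole section Apoe gave 34350 to 146032 UMIs, Clu 28034 to 81033, Apod 16671 to 116267, Abca1 2123 to 5464 and Lcat 1981 to 4629. Levels are CPM, the UMIs of a gene scaled to a fixed total over all spots of a zone, with edgeR's TMM factors for composition. Levels of different genes are not compared, because the probes of each gene differ. Barcodes mark slide positions, so 2612 to 2997 were shared between any pair of version 1 sections, 3364 between the 2 aged sections and 0 across slide versions.

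Spots were grouped by clustering without these 5 genes, and clusters were named from marker panels. This gave the cortex (CTX, 6553 spots), hippocampus (HP, 1929), thalamus (TH, 3313), hypothalamus (HY, 3449), striatum (STR, 1126) and fibre tracts (FT, 1560), together with meninges and large vessels (MV, 1088), the reticular thalamic nucleus (RT, 241) and ventricle (VS, 120). All 8 FT panel genes were raised in the FT cluster. It had 220 and 201 spots at P21, 212 and 255 in adult and 348 and 324 in aged sections. Its leading 10 genes, taken over all ages together, were C4b, Klk6, Apod, Anln, Trf, Serpina3n, Hapln2, Gfap, Mobp and Lgals3, with Mobp the 1 FT panel gene. Apod took no part in the clustering. A further cluster of 735 spots, called cluster 10, had all 8 FT genes raised, but 4 VS genes and 1 FT gene among its leading 10, so it was kept apart. FT held 65.9% and 58.1% of the spots of FT and cluster 10 at P21, 58.6% and 62.7% in adult and 76.7% and 82.7% in aged sections. VS was not compared, with 6 to 11 spots per P21 or adult section.

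Over the whole section, Apoe and Apod rose between adult and aged, and the other 3 genes were not called. Apoe was at 901 and 827 CPM at P21, 825 and 814 CPM in adult and 1224 and 1283 CPM in aged sections, and only the aged pair stood apart. Apod was at 445 and 401 CPM at P21, 677 and 579 CPM in adult and 1125 and 1021 CPM in aged sections. Its 3 ages did not overlap. How many of all genes have ages that do not overlap was not counted, here or wherever this is said below. In edgeR's quasi-likelihood test with Benjamini-Hochberg adjustment over all genes, aged against adult gave a log2 fold change of 0.61 ± 0.07 (SE) for Apoe, with an adjusted p of 2.79e-05. It gave 0.77 ± 0.09 for Apod, with an adjusted p of 3.67e-05. A gene was called when its adjusted p was under 0.05 and its fold change over 1.5, and of all 11315 genes tested 3.72% were called higher and 5.27% lower. Clu, Abca1 and Lcat had log2 fold changes of -0.01, -0.03 and -0.11, with adjusted p of 0.94, 0.759 and 0.265. The median over all genes was -0.10, and scaling to library size alone added 0.11 to every value. Without adult section 2 the Apoe value was 0.58, under the 1.5-fold limit.

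**Figure D1:**
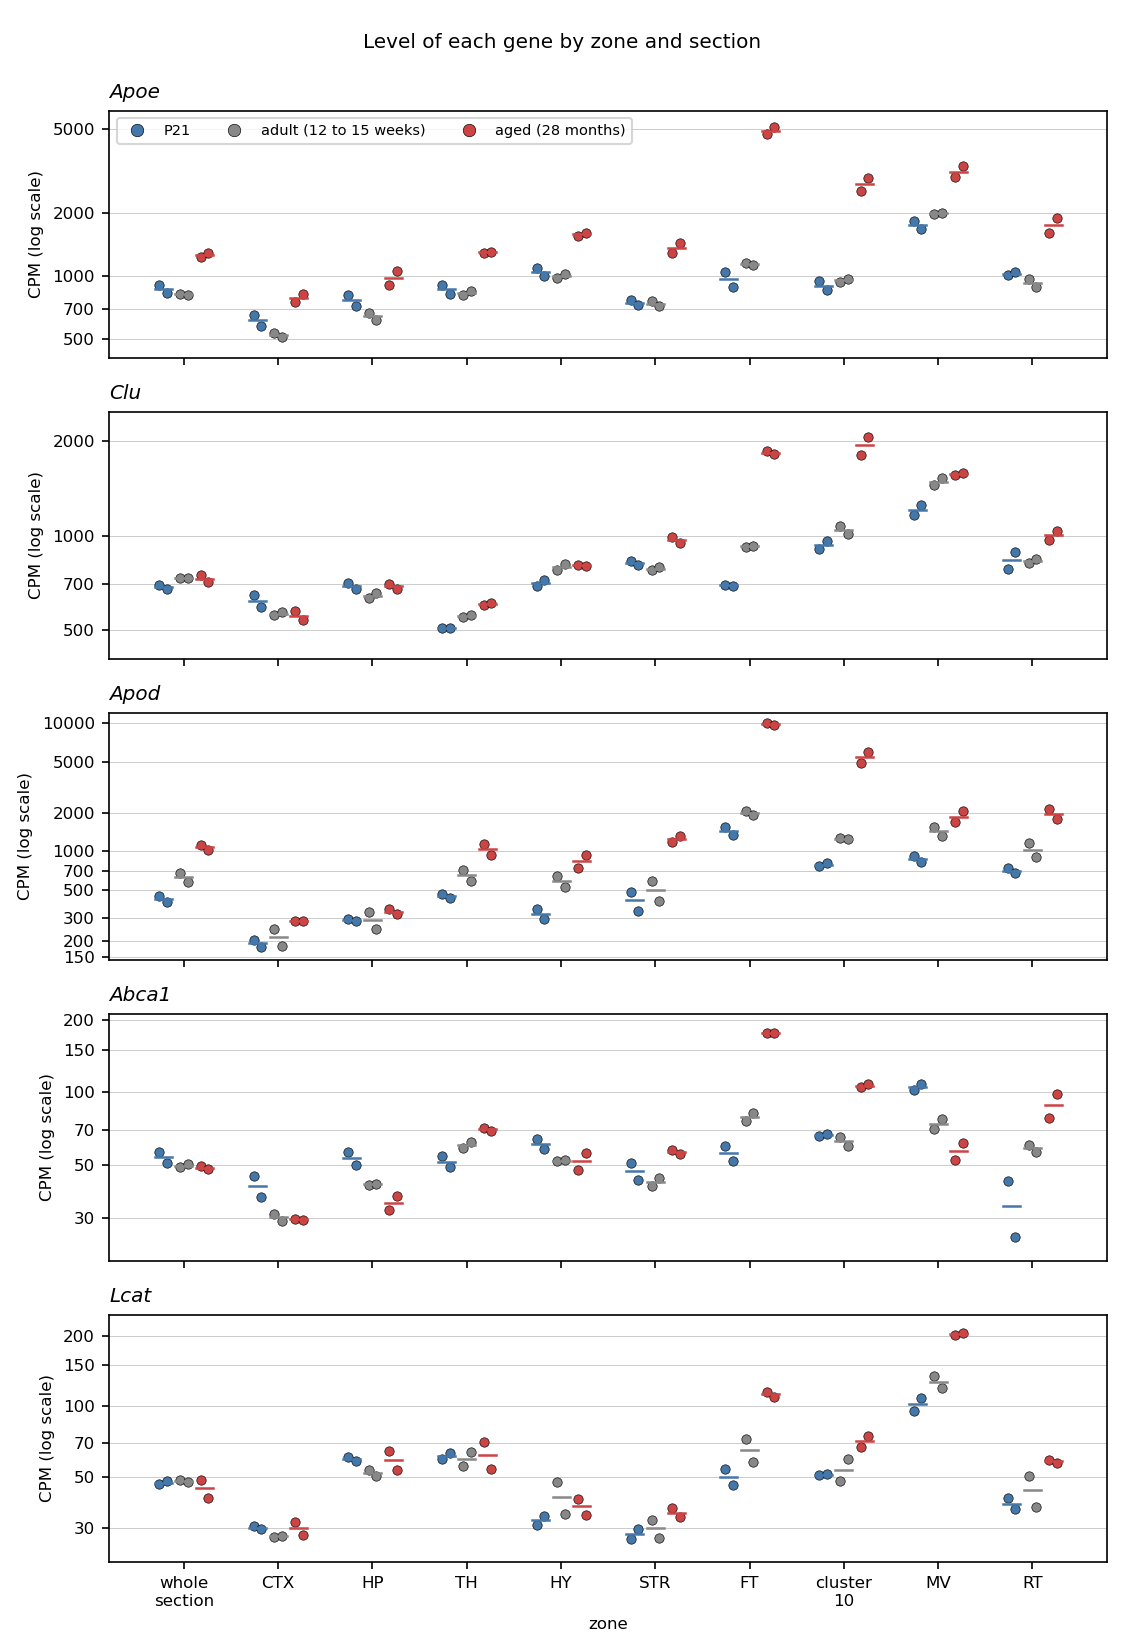
Level of each gene in CPM (log scale) in the whole section and in 9 groups of spots. Each point is 1 section, and bars are the means of the 2 sections of an age. The aged sections of all 5 genes lie above the P21 and adult sections in FT, and how many of all genes do so was not counted.

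In the fibre tracts all 5 genes were called higher in aged than in adult sections. Of all 11041 genes tested there, 13.6% were called higher and 15.5% lower in aged sections, and the median log2 fold change was -0.03 over all genes against 1.15 over the 5 members.

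Apod, a lipocalin that binds arachidonic acid and other small lipids, differed most. Its FT level was 1534 and 1340 CPM at P21, 2050 and 1909 CPM in adult, and 9981 and 9681 CPM in aged sections. The 3 ages did not overlap, with a small step from P21 to adult and a large one from adult to aged. Aged against adult gave a log2 fold change of 2.31 ± 0.12, or 4.97-fold (adjusted p = 4.67e-10). P21 against adult gave -0.46 ± 0.12 (adjusted p = 0.0113), which is under the 1.5-fold limit, and without P21 section 1 it was -0.60 and called.

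Apoe, which encodes the main apolipoprotein of the brain, was at 1046 and 888 CPM in FT at P21, 1152 and 1126 CPM in adult and 4722 and 5070 CPM in aged sections. Here too both aged sections stood far above the rest, and P21 lay just below adult. Aged against adult gave 2.10 ± 0.12, or 4.30-fold (adjusted p = 6.36e-10), while P21 against adult gave -0.23 ± 0.11 (adjusted p = 0.174). Clu, an extracellular chaperone that also circulates in lipid particles, was at 698 and 690 CPM at P21, 924 and 926 CPM in adult and 1866 and 1818 CPM in aged sections. Its sections agreed closely within each age. The aged to adult log2 fold change was 0.99 ± 0.10, or 1.99-fold (adjusted p = 3.85e-07), and P21 against adult gave -0.41 ± 0.10 (adjusted p = 0.00691, under the 1.5-fold limit).

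Abca1, the exporter, was at 59.7 and 52.0 CPM in FT at P21, 76.1 and 82.3 CPM in adult and 176 CPM in both aged sections. Its 3 ages did not overlap. Between adult and aged it rose by 1.15 ± 0.10, or 2.22-fold (adjusted p = 1.02e-07), and P21 against adult gave -0.48 ± 0.11 (adjusted p = 0.00581, under the 1.5-fold limit). Lcat, the enzyme that esterifies cholesterol on the particle, was at 53.7 and 45.8 CPM at P21, 72.4 and 57.7 CPM in adult and 115 and 110 CPM in aged sections. It rested on the fewest molecules, 104 to 465 UMIs per section. It rose from adult to aged by 0.79 ± 0.12, or 1.73-fold (adjusted p = 5.59e-05), and P21 against adult gave -0.36 ± 0.14 (adjusted p = 0.0745).

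Where zones were drawn from marker scores in place of clusters, the FT differences between aged and adult were smaller, at 1.88 for Apod, 1.53 for Apoe, 0.75 for Abca1 and 0.63 for Clu. The Lcat difference was then 0.44, under the 1.5-fold limit. With the spots of cluster 10 added to FT, a choice made after the data were seen, the log2 fold changes were 2.34, 2.0, 1.09, 0.92 and 0.74 for Apod, Apoe, Abca1, Clu and Lcat.

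Within cluster 10 itself, 4 of the 5 genes were called higher in aged than in adult sections, against 8.99% of all genes called higher there. Apod was at 761 and 806 CPM at P21, 1272 and 1238 CPM in adult and 4889 and 5985 CPM in aged sections. The log2 fold changes from adult to aged were 2.11 ± 0.11 for Apod, 1.51 ± 0.10 for Apoe, 0.89 ± 0.10 for Clu and 0.76 ± 0.13 for Abca1, with adjusted p between 1.27e-12 and 1.23e-04. For Lcat the value was 0.42 ± 0.15 (adjusted p = 0.0446, under the 1.5-fold limit). Choroid plexus markers summed to 5383 to 17101 CPM in this cluster across the 6 sections, and their part in these values was not tested. In P21 sections Apod was lower than in adult by the call rule, with a log2 fold change of -0.68 ± 0.11 (adjusted p = 5.51e-05), where 2.93% of all genes were called lower.

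**Figure D2:**
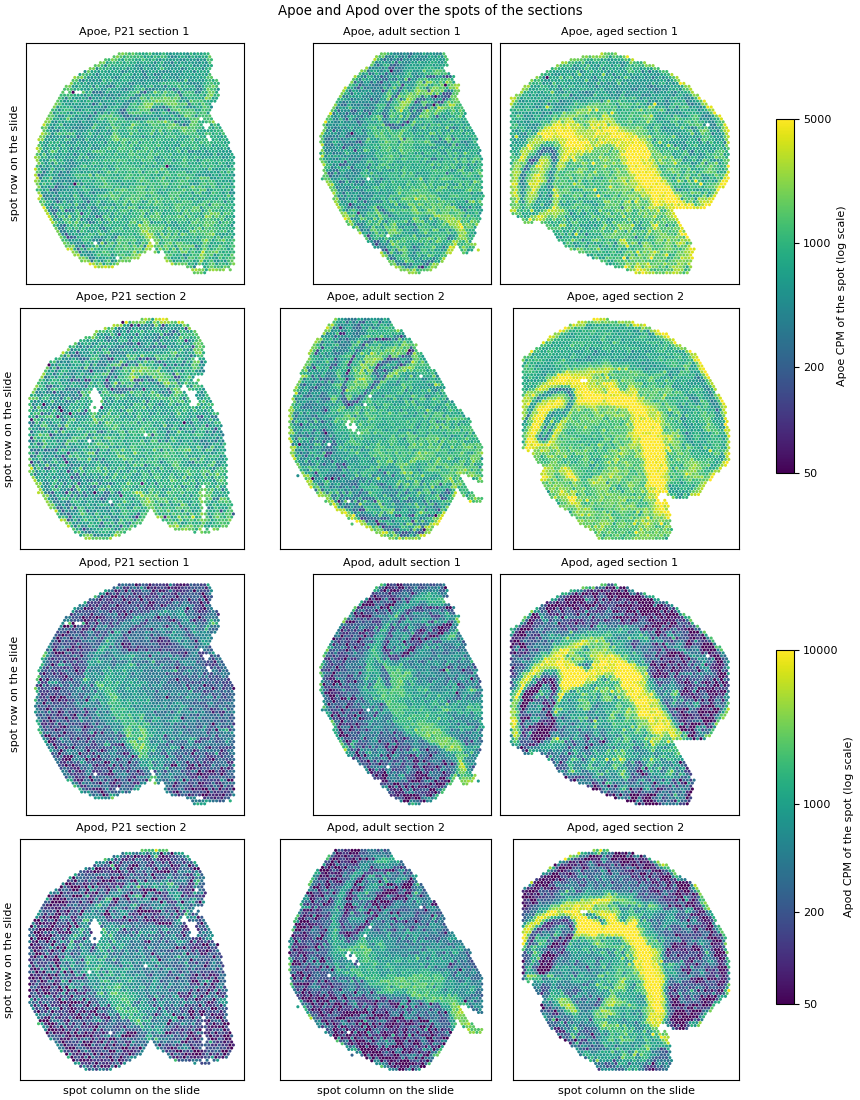
CPM of Apoe and Apod in each spot of the 6 sections, on the slide's own grid of rows and columns. Colour is on a log scale, clipped at 50 and at 5000 CPM for Apoe or 10000 CPM for Apod, and the brightest bands run through the fibre tracts of the aged sections.

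Outside the fibre tracts the 5 genes parted. Over the 6 zones CTX, HP, TH, HY, STR and FT there were 30 pairs of a gene and a zone, and 11 of them were called higher in aged than in adult sections and 0 lower, against 7.82% and 7.28% of all pairs of a gene and a zone. Apoe accounted for 5 of the 11, Apod for 3, and Clu, Abca1 and Lcat for 1 each, all in FT.

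Apoe rose in HP, TH, HY and STR by log2 fold changes of 0.61 ± 0.10, 0.65 ± 0.08, 0.66 ± 0.09 and 0.88 ± 0.09, with adjusted p between 9.7e-07 and 0.00171. Of all genes, 5.73%, 6.87%, 6.50% and 7.95% were called higher in these 4 zones. In STR it was at 766 and 726 CPM at P21, 760 and 720 CPM in adult and 1292 and 1437 CPM in aged sections, so only the aged pair stood apart. In CTX it was at 538 and 513 CPM in adult and 756 and 817 CPM in aged sections, also without overlap. The CTX value of 0.58 ± 0.08 (adjusted p = 1.34e-04) was just under the 1.5-fold limit. It passed the limit without P21 section 1 (0.59), adult section 1 (0.60) or aged section 1 (0.64), with library size scaling (0.60) and with spots at zone borders left out (0.59). The HP call was lost without adult section 2 (0.56) or aged section 2 (0.51), and with library size scaling (0.57).

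Apod rose in TH and STR. In STR it was at 485 and 345 CPM at P21, 585 and 411 CPM in adult and 1189 and 1317 CPM in aged sections. P21 and adult overlapped there, and the aged sections were well above both. Aged against adult gave 1.33 ± 0.14, or 2.51-fold (adjusted p = 2.13e-06). Microglia markers in STR summed to 754 and 715 CPM in adult and 1031 and 1028 CPM in aged sections, and their part in the Apoe and Apod values there was not tested. In TH the value was 0.67 ± 0.11 (adjusted p = 0.0011), and it was 0.54 without adult section 2 and 0.51 without aged section 1, both under the 1.5-fold limit. In HY, CTX and HP the values were 0.53, 0.42 and 0.22, with adjusted p of 0.0281, 0.0106 and 0.2, and none was called. Without adult section 1 the HY and CTX values were 0.68 and 0.64 and were called, as was HY without aged section 1 (0.69).

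Clu, Abca1 and Lcat were called between aged and adult sections in none of the other 5 zones taken whole. In parts of HP, described below, Clu and Lcat were called. In STR, Clu was at 776 and 795 CPM in adult and 990 and 945 CPM in aged sections, a log2 fold change of 0.30 ± 0.08 (adjusted p = 0.0102), and Abca1 gave 0.41 ± 0.13 (adjusted p = 0.022), both under the 1.5-fold limit. In CTX, Clu was at 558 and 569 CPM in adult and 573 and 540 CPM in aged sections, and the groups overlapped. Abca1 was at 31.4 and 29.2 CPM in adult CTX and 29.8 and 29.6 CPM in aged CTX, again overlapping. Lcat log2 fold changes in these zones ran from -0.15 in HY to 0.22 in STR.

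**Figure D3:**
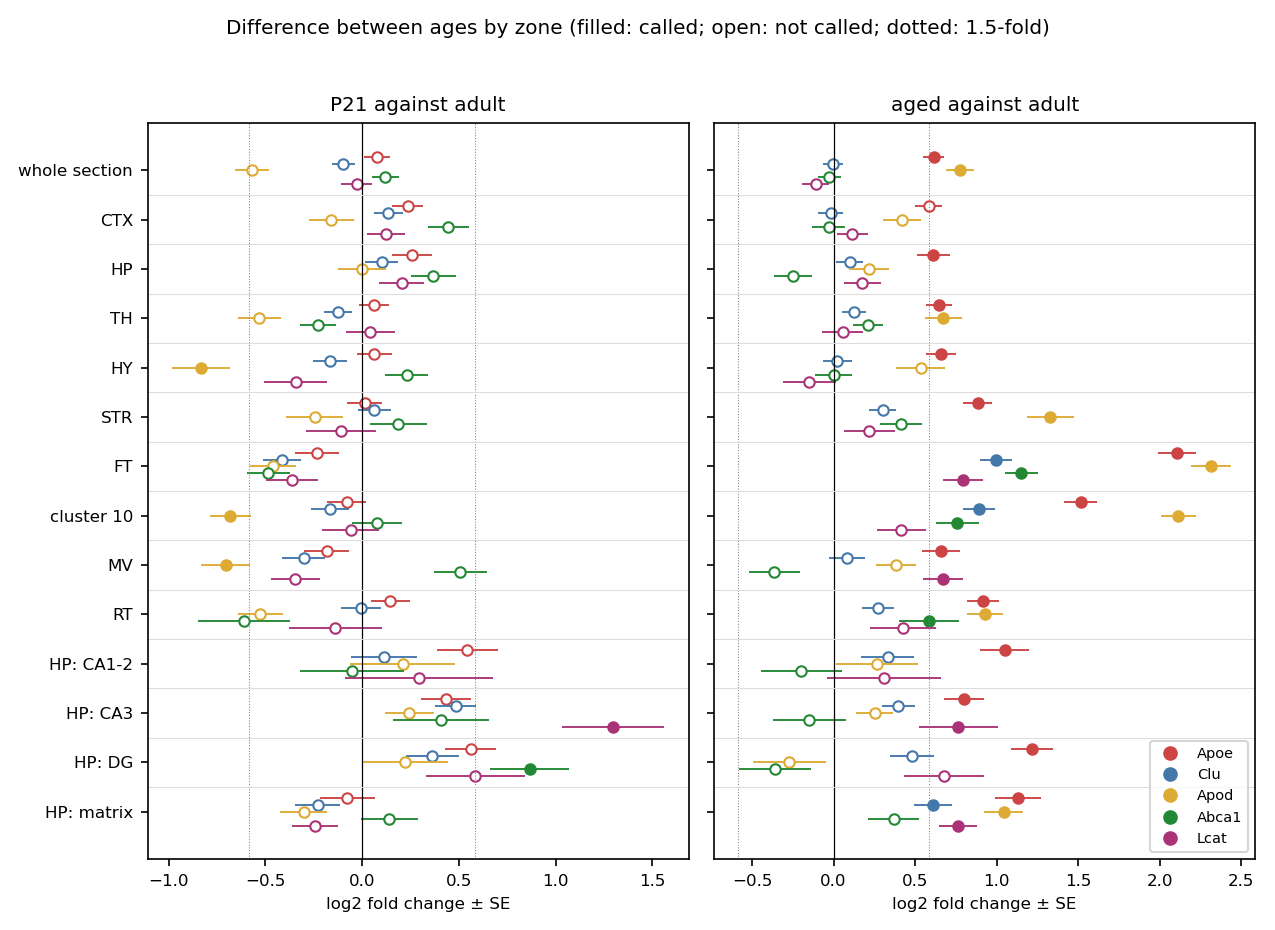
Log2 fold change ± SE of each gene against adult by zone, P21 on the left and aged on the right, from edgeR. Filled points were called (adjusted p under 0.05 and over 1.5-fold, the dotted lines), and FT is the 1 zone of the 6 where all 5 genes are filled in the aged panel.

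Fewer pairs were called between P21 and adult sections. Of the 30 pairs, 0 were called higher and 1 lower at P21, against 3.76% and 2.20% of all pairs of a gene and a zone. At an adjusted p under 0.05 alone, without the fold limit, Apod differed in the whole section, FT, TH and HY. The share of all genes that passed this looser limit was not counted. Both comparisons share the adult sections. The pair called was Apod in HY, where 220 of 11016 genes were called lower. It was at 357 and 297 CPM at P21 against 640 and 524 CPM in adult, without overlap. The hypothalamic gene Hcrt, without TMM factors, was at 340 and 363 CPM in HY at P21 and 0.357 and 1117 CPM in adult. In aged HY it was at 2155 and 1.26 CPM. The part of the level of the section in the HY values of any age was not tested. The log2 fold change of Apod in HY was -0.83 ± 0.15 (adjusted p = 0.0144), and the call was lost without P21 section 1 (adjusted p = 0.127), P21 section 2 (adjusted p = 0.196) or adult section 1 (adjusted p = 0.116). In the whole section Apod gave -0.57 ± 0.09 (adjusted p = 5.96e-04), where 3.17% of all genes were called higher and 1.95% lower, and in TH -0.53 ± 0.11 (adjusted p = 0.00889), both under the 1.5-fold limit. The whole-section value passed it without P21 section 1 (-0.64) or adult section 2 (-0.68), and the TH value without adult section 2 (-0.67).

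Abca1 differed in sign between zones at P21. It was higher at P21 in CTX, at 44.9 and 37.0 CPM against 31.4 and 29.2 CPM in adult, with a log2 fold change of 0.45 ± 0.10 (adjusted p = 0.0097), and in FT it was lower, as given above. Neither value passed the 1.5-fold limit, although the FT value was -0.65 and called without P21 section 1. In HP it was at 56.3 and 50.1 CPM at P21 and 41.4 and 41.7 CPM in adult, without overlap, with a log2 fold change of 0.37 (adjusted p = 0.0564). Apoe in CTX was at 654 and 582 CPM at P21 against 538 and 513 CPM in adult, with a log2 fold change of 0.24 (adjusted p = 0.0562). The log2 fold changes of Clu and Lcat in CTX, HP, TH, HY and STR lay between -0.34 and 0.20, and none was called.

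Whether a gene's difference between ages depended on the zone was tested in 1 model of all 6 zones with a block for each section. A shift of a gene common to all zones of a section is taken up by the block, but a shift that differs between zones is not. Transcripts counted away from their cells, for which values of Prkcd, Adora2a and C1ql2 by age are given below, were not modelled, and their part was not tested. In aged against adult sections all 5 genes differed between zones, with adjusted p between 3.61e-12 for Apoe and 6.39e-04 for Lcat, but so did 47.5% of all 11338 genes. The age difference in FT exceeded the mean of the other 5 zones by 1.67 ± 0.12 log2 units for Apod, 1.44 ± 0.07 for Apoe, 1.09 ± 0.08 for Abca1, 0.90 ± 0.05 for Clu and 0.73 ± 0.13 for Lcat. The adjusted p of this contrast was at most 5.11e-05, and 39.9% of all genes passed it.

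In P21 against adult sections Apoe, Clu, Apod and Abca1 differed between zones, as did 11.4% of all genes. The FT difference minus the mean of the other zones was -0.70 ± 0.10 log2 units for Abca1, -0.43 ± 0.06 for Clu and -0.37 ± 0.07 for Apoe, with adjusted p of 2.72e-05, 1.81e-05 and 7.86e-04. For Lcat it was -0.35 ± 0.14 (adjusted p = 0.165) and for Apod -0.13 ± 0.12 (adjusted p = 0.618). Of all genes, 5.90% passed this contrast. The Apoe value was -0.31 (adjusted p = 0.0821) without P21 section 2. With zones from marker scores the Apoe value was -0.24 (adjusted p = 0.0992) and the Clu value -0.24 (adjusted p = 0.0571).

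With zones from clusters, the share of each gene in FT relative to other zones moved in 1 direction over the 3 ages for 4 genes. The log2 ratio of FT over the mean of the other 5 zones was 0.30 and 0.21 at P21, 0.62 and 0.60 in adult and 2.03 in both aged sections for Apoe. It was 0.04 and 0.06, then 0.49 and 0.45, then 1.34 and 1.35 for Clu. For Abca1 it was 0.14 and 0.13 at P21, 0.76 and 0.84 in adult and 1.88 and 1.83 in aged sections. Lcat followed the same order with wider spread, at 0.36 and 0.09, then 0.74 and 0.50, then 1.25 and 1.43. Apod was already concentrated in FT at P21, at 2.08 and 2.12, against 2.02 and 2.29 in adult and 3.75 and 3.67 in aged sections, so its P21 sections lay within the adult range. With zones from marker scores the Apod ratio was 1.47 and 1.54 at P21, 1.58 and 1.89 in adult and 3.14 and 2.75 in aged sections. Its P21 sections then lay below both adult sections. The aged Apoe ratio was then 1.48 and 1.27. FT was defined by clustering the same spots, so these ratios carry no test. Transcripts can be counted away from their cells, and their part in these ratios was not tested. Of the 8 zones compared, MV held the highest Apoe level in every P21 and adult section, and FT did so in both aged sections.

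Distance was counted in spot steps from the nearest spot of FT or cluster 10, and spots of MV, VS and cluster 10 were left out. Among the classes of distance, the ratio of aged to adult was highest within FT for each of the 5 genes. In VS, without TMM factors, Apod was at 330 and 431 CPM in adult and 3747 and 5220 CPM in aged sections. Those values rest on 8 and 7 spots in adult and 46 and 42 spots in aged sections. For Apod the log2 ratio of aged to adult mean CPM, without TMM factors, was 2.27 in FT, 1.52 at 1 step, 0.94 at 2 steps, 0.84 at 3 steps, 0.70 at 4 to 5 steps and 0.20 beyond. Both aged sections lay above both adult sections up to 4 to 5 steps. At 1 step Apod was at 520 and 457 CPM at P21, 793 and 644 CPM in adult and 2065 and 2041 CPM in aged sections. For Apoe the ratio was 2.06 in FT, 1.11 at 1 step and 0.77 at 2 steps, and from there it stayed between 0.51 and 0.67, with the aged sections above the adult ones at every distance. Clu and Abca1 reached less far. Their ratios were 0.95 and 1.11 in FT, 0.55 and 0.52 at 1 step, 0.23 and 0.13 at 2 steps and 0.09 and 0.03 at 3 steps, beyond which Abca1 reached -0.15. Lcat gave 0.75 in FT, 0.50 at 1 step and -0.23 beyond 5 steps. Transcripts can also be counted away from their cells. The thalamic gene Prkcd was counted in CTX at 6.68% and 6.36% of its TH level at P21, 2.79% and 2.41% in adult and 0.458% and 0.550% in aged sections. Adora2a gave 3.25% and 2.92%, then 2.38% and 1.64%, then 2.15% and 1.18% of its STR level. C1ql2 gave 10.3% and 2.83%, then 4.40% and 2.72%, then 3.19% and 1.69% of its HP level. For Adora2a and C1ql2 adult and aged sections overlapped, unlike for Prkcd. Pmch and Hcrt varied widely in HY itself and were not read. The part of such transcripts in these distances was not tested.

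**Figure D4:**
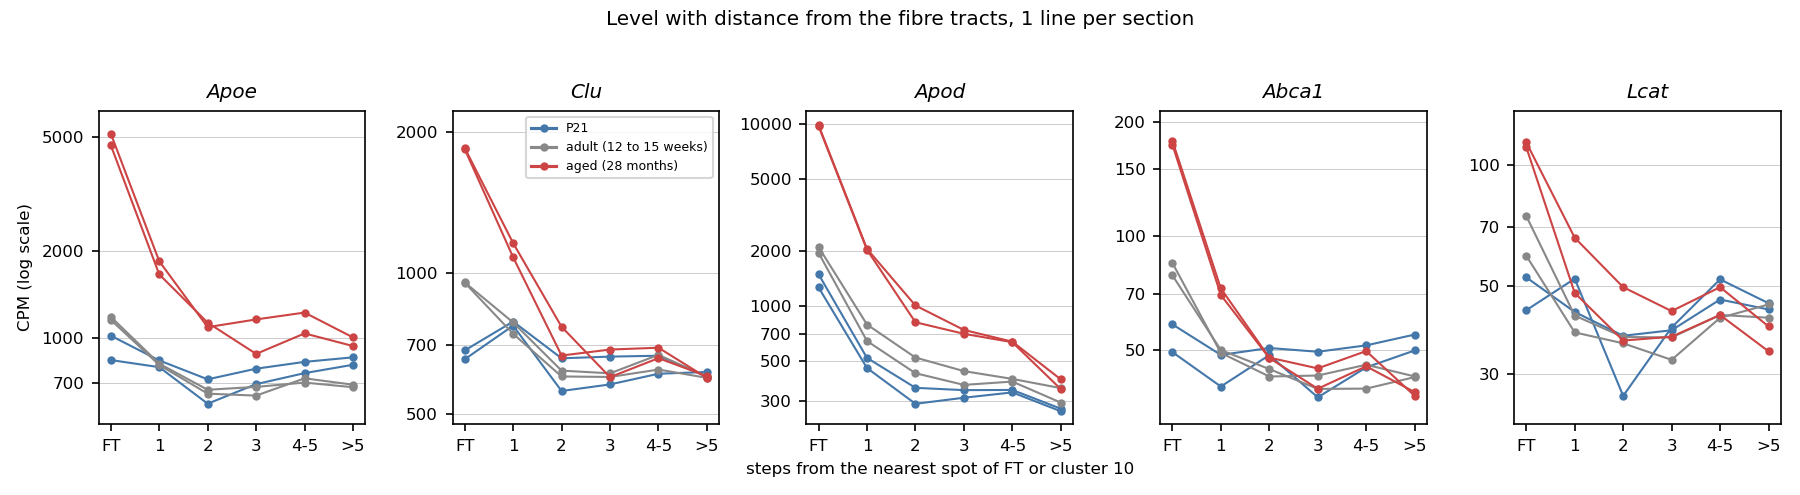
CPM of each gene (log scale) against distance from the nearest spot of FT or cluster 10, in spot steps, with 1 line per section. Spots of MV, VS and cluster 10 were left out. The aged lines stand above the adult lines at every distance for Apoe and only near FT for Clu and Abca1.

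In the hippocampus the spots were split into CA1-2, CA3, the dentate gyrus (DG) and the remaining neuropil and white matter (matrix). Apoe was higher in aged than in adult sections in all 4. The log2 fold changes were 1.05 ± 0.15, 0.80 ± 0.12, 1.22 ± 0.13 and 1.13 ± 0.14, with adjusted p between 2.53e-06 and 7.45e-05. The shares of all genes called higher in the 4 subzones were 3.92%, 4.78%, 3.61% and 8.90%. In DG, Apoe was at 535 and 471 CPM at P21, 376 and 309 CPM in adult and 885 and 710 CPM in aged sections. The adult sections were the lowest of the 3 ages. Astrocyte markers in DG summed to 2843 and 2895 CPM at P21, 1993 and 1972 CPM in adult and 3628 and 2535 CPM in aged sections, and microglia markers to 349 and 376 CPM in adult and 684 and 502 CPM in aged sections. Choroid plexus markers in DG summed to 3694 and 1616 CPM at P21, 268 and 150 CPM in adult and 2337 and 62.9 CPM in aged sections. The part of these markers in the Apoe values was not tested. The Apoe differences between aged and adult sections were each larger than the 0.61 found over the whole HP. The matrix had 216, 210, 237, 280, 128 and 113 spots in the P21, adult and aged sections. All HP spots numbered 328, 303, 352, 422, 283 and 241 in the same order. The part of this mix of spots in the whole-HP values of any gene was not tested.

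Lcat was lowest in adult CA3, at 13.5 and 17.5 CPM, against 43.1 and 29.1 CPM at P21 and 26.1 and 27.7 CPM in aged sections. It was higher than in adult at both other ages, by 1.30 ± 0.26 at P21 (adjusted p = 0.00188, with 2.68% of all genes called higher) and by 0.76 ± 0.24 in aged sections (adjusted p = 0.0267), and it rested on 17 to 104 UMIs. Clu in CA3 had the same order, at 415 and 395 CPM, then 274 and 305 CPM, then 387 and 378 CPM, with log2 fold changes of 0.48 (adjusted p = 0.00481) and 0.40 (adjusted p = 0.00536), both under the 1.5-fold limit. Summed astrocyte markers in CA3 had this order too, at 2849 and 2732 CPM at P21, 2077 and 2229 CPM in adult and 2694 and 2376 CPM in aged sections, and their part in the Lcat and Clu values was not tested. Abca1 in DG was at 61.4 and 50.8 CPM at P21, 33.9 and 28.7 CPM in adult and 21.2 and 26.0 CPM in aged sections. Its ages did not overlap, and P21 against adult gave 0.87 ± 0.20 (adjusted p = 0.00996, with 6.34% of all genes called higher), while aged against adult gave -0.36 (adjusted p = 0.316). In the matrix 4 genes were called higher in aged than in adult sections, with Apod at 1.04 ± 0.12, Lcat at 0.76 ± 0.12 and Clu at 0.61 ± 0.12 besides Apoe. Astrocyte markers there summed to 6435 and 6923 CPM in adult and 10178 and 11211 CPM in aged sections, and microglia markers to 1166 and 1239 CPM and to 2036 and 2271 CPM, and their part was not tested.

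Meninges and large vessels, which hold fibroblasts and smooth muscle cells, set Lcat and Abca1 apart. Lcat in MV was at 95.6 and 109 CPM at P21, 135 and 120 CPM in adult and 203 and 206 CPM in aged sections, and the 3 ages did not overlap. Aged against adult gave 0.67 ± 0.12 (adjusted p = 3.32e-04), where 7.82% of all genes were called higher. Abca1 went the other way, at 102 and 109 CPM at P21, 70.5 and 77.6 CPM in adult and 52.6 and 61.4 CPM in aged sections. Its 3 ages were also separate, but neither P21 against adult (0.51 ± 0.14, adjusted p = 0.0254) nor aged against adult (-0.36 ± 0.16, adjusted p = 0.102) was called. Apoe rose there by 0.66 ± 0.12 (adjusted p = 2.43e-04), and Apod was lower at P21 by the call rule (-0.70 ± 0.13, adjusted p = 7.42e-04, with 1.94% of all genes called lower). In RT, Apoe, Apod and Abca1 were higher in aged than in adult sections, by 0.91 ± 0.10, 0.93 ± 0.11 and 0.59 ± 0.18 (adjusted p of 1.45e-07, 6.91e-07 and 0.0227). There 7.45% of all genes were called higher, and Abca1 rested on 9 to 125 UMIs. Microglia markers in RT summed to 621 and 681 CPM in adult and 1122 and 1204 CPM in aged sections. The list of activated microglia markers summed to 1545 and 1485 CPM and to 2393 and 2366 CPM. That list holds Spp1, which was among the leading genes of the RT cluster itself, so its sum in RT is not a measure of microglia alone. The part of these markers in the RT values was not tested.

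Other genes of lipid transport were read from a list of 64 genes, of which 63 are in the files and 43 could be tested in FT. In aged FT 17 of the 43 were called higher and 3 lower, against 13.6% and 15.5% of all genes, and their median log2 fold change was 0.37 against -0.03 over all genes. In the whole section 0 of 43 were higher and 2 lower, against 3.72% and 5.27% of all genes, with a median of -0.15 against -0.10 over all genes. Of 7 lipid transporters in FT, 4 rose, among them Abcg1, which moves cholesterol onto particles already formed (0.89), Abca2 (1.07), Abca7 (0.96) and Abca8a (1.88), and Abca5 fell by 0.60. Of 7 nuclear receptors and their targets 3 rose, Lpcat3 (0.98), Srebf1 (0.80) and Mylip (0.68). The 1 further apolipoprotein tested, Apoc1, rose by 1.39.

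Of 14 genes of cholesterol handling 6 rose in aged FT, Tspo (1.89), the lipid droplet coats Plin2 (1.45) and Plin3 (0.98), Soat1 (0.79), which esterifies cholesterol for storage, Npc2 (0.73) and Stard3 (0.67), and Fabp7 fell by 0.96. In the group of receptors Lsr rose (0.93) and Lrpap1 fell by 0.59. Of 4 remodelling enzymes Lpl, which releases fatty acids from lipoproteins, rose (1.27). Genes in these 2 paragraphs other than Abca8a, Lpl and Fabp7, which met a rule of 4 called zones, were named after their values were seen. At P21 6 of 43 list genes were called higher in FT and 4 lower, with a median of 0.03, against 5.34% and 3.99% of all genes.

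Abca8a, a transporter of the same family as Abca1, had the widest range. In FT it gave 4 and 5 UMIs at P21, 122 and 80 UMIs in adult and 362 and 396 UMIs in aged sections, or 0.75 and 2.09, 33.4 and 20.2, and 96.1 and 94.6 CPM without TMM factors. The 3 ages did not overlap. It was lower at P21 in all 5 zones where it was tested, by log2 fold changes from -4.38 in FT to -1.68 in HP. The size of the FT value rests on the 4 and 5 UMIs at P21. A zone was tested where the gene was detected in enough spots at either age, so adult spots alone could admit it. How far this rule favoured zones with a lower P21 level was not tested. Abca8a was higher in aged sections in TH (0.72), HY (0.89), STR (1.11) and FT (1.88). Its close relative Abca8b was not compared, and whether the probes tell them apart was not tested. Lpl was higher in aged FT, at 41.9 and 44.2 CPM against 18.3 and 18.5 CPM in adult, and lower in aged CTX (-0.77), TH (-1.27) and HY (-0.78). Fabp7, a fatty acid binding protein of radial glia and immature astrocytes, was higher at P21 in CTX (0.79), HP (1.05), STR (0.93) and FT (0.63).

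**Figure D5:**
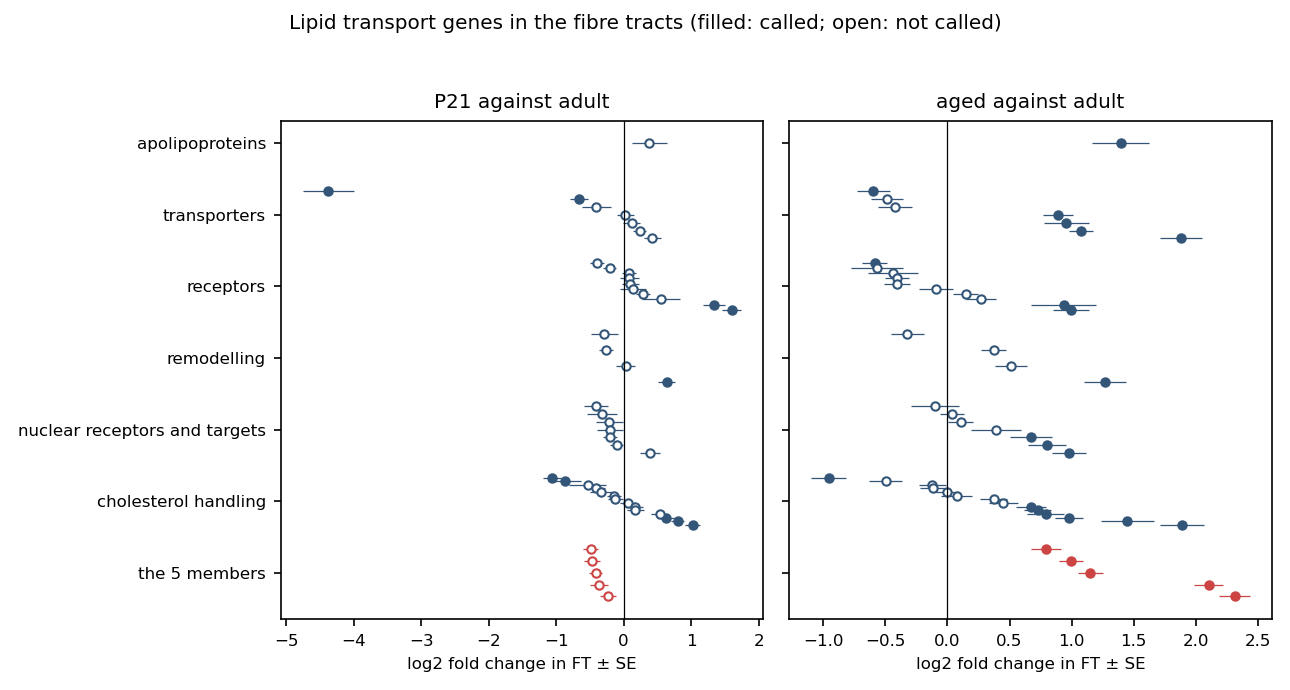
Log2 fold change ± SE in FT against adult for the lipid transport genes tested, by group, and for the 5 members, P21 on the left and aged on the right. Filled points were called, and 17 of 43 list genes are filled to the right of 0 in the aged panel (the 2 panels have different scales).

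Markers of several cell types moved in FT together with the 5 genes, and none of the 5 is in any of these lists. In aged FT 10 of 12 microglia markers rose, with a median of 1.61, and their summed level was 943 and 920 CPM at P21, 1160 and 1337 CPM in adult and 4025 and 4068 CPM in aged sections. All 7 tested markers of activated microglia rose (median 2.03), and 5 of 12 astrocyte markers rose (median 0.53), with summed levels of 5574 and 5518 CPM in adult and 8708 and 8309 CPM in aged sections. Of 12 oligodendrocyte markers 2 rose and 1 fell, but 8 of them also served to name FT. Of 10 neuron markers 1 rose and 6 fell, and their sum was 6028 and 5534 CPM in adult against 2402 and 2607 CPM in aged sections. At P21, 9 of 12 oligodendrocyte markers were higher than in adult, with sums of 94956 and 115021 against 48025 and 45904 CPM. In CTX 0 of 12 microglia markers rose and 1 fell in aged sections, and 4 of 7 tested markers of activated microglia rose. All 3 tested erythrocyte markers and 5 of 7 markers of oligodendrocyte precursors were also higher at P21 in FT. Of the other lists in aged FT, 1 of 7 endothelial markers rose and 3 fell, 1 of 6 mural markers rose, 2 of 2 tested ependymal markers rose, 1 of 5 meningeal markers rose and 2 fell, 1 of 7 precursor markers fell, and 0 of 4 choroid plexus and 0 of 3 erythrocyte markers were called. The part of these markers in the values of the 5 genes was not tested.

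Within a zone the spots rich in a gene were compared with summed markers, as a description, since spots of 1 section share a library and their depth. In CTX, Apoe followed the astrocyte markers, with Pearson's r over spots of 0.39 to 0.64 in the 6 sections. In FT its r with astrocyte markers was 0.51 and 0.41 at P21, 0.57 and 0.39 in adult and 0.28 and 0.33 in aged sections. Its r with microglia markers in FT was 0.18 and -0.06 at P21, 0.12 and 0.18 in adult and 0.42 and 0.54 in aged sections. The 2 aged sections thus had the highest microglial and the lowest astrocytic r of the 6. The summed microglia level in FT and the median UMIs per spot of the section were also higher in aged than in adult sections. The part of both in these r values was not tested. Clu followed astrocyte markers in FT with r of 0.20 to 0.48, and its r with microglia markers was -0.04 to 0.10 at all ages. Apod followed oligodendrocyte markers in FT in every section, with r of 0.40 to 0.70, and was inverse to neuron markers, with r of -0.66 to -0.33. Abca1 and Lcat had a UMI in only 45.0% to 71.6% and 40.0% to 63.0% of spots, so their weak correlations were not read.

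Over 48 zone sums (8 named zones in 6 sections, on log2(CPM + 1)), the genes most like each member among 13817 were Cd63, Nfe2l2 and Mapkapk3 for Apoe, with r of 0.961, 0.941 and 0.928. For Clu they were Vim, Fzd7 and Itgb5 (0.913, 0.901 and 0.90), and for Apod Zcchc24, Ppfibp2 and Ldb3 (0.963, 0.95 and 0.936). Abca1 was most like Tgif1, Erlin2 and Eml3 (0.859, 0.846 and 0.843), and Lcat most like Cdc42ep4, Ctsc and Pdlim5 (0.875, 0.856 and 0.854). Among the members, Apoe and Apod were closest (0.862), then Apoe and Clu (0.854), and Abca1 and Lcat were farthest apart (0.577). The 48 points share libraries and zones, so these values are descriptive.

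The deposited Moran's I is a score of how strongly neighbouring spots resemble each other. It uses no zone and does not say where a gene is high. For Apod it was 0.477 and 0.386 at P21, 0.541 and 0.550 in adult and 0.748 and 0.744 in aged sections, above 99.2% and 99.1% of all genes listed at P21 and 99.7% to 99.8% in the other sections. For Apoe it was 0.282 and 0.183, then 0.325 and 0.297, then 0.638 and 0.650, and for Clu 0.240 and 0.177, then 0.247 and 0.264, then 0.463 and 0.509. The aged sections were the highest for both genes. Apoe exceeded 98.4% and 97.9% of listed genes in adult and 99.3% in both aged sections. Clu exceeded 96.7% and 97.3% in adult and 97.4% and 97.7% in aged sections, so its rank changed little. Abca1 went from 0.030 and 0.018 at P21 to 0.208 and 0.224 in aged sections, with 0.063 and 0.074 in adult. Lcat reached 0.177 and 0.194 in aged sections, but exceeded 87.0% and 86.1% of genes there against 88.5% and 88.7% in adult, so it ranked lower. The lists held 17463 and 17185 genes in adult and 19357 and 19363 in aged sections, so these percentages are over different lists. Depth and slide version also differed between the sections, and their part in this score was not tested.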

How the data were processed

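RNA was measured in 6 FFPE coronal brain sections, 2 each at P21, adult and aged. The deposited matrices hold raw UMI counts for each spot, which the authors made with Space Ranger (2.0.0 for P21 and adult, 3.1.1 for aged, per the file headers) from the 10x mouse probe panel on mm10. The labels' processing notes name Space Ranger 2.1.0 and Seurat 5.1.0. For the 17185 to 19363 genes they list per section, the deposited enrichment tables also give Moran's I, beside its p-value and an average signal per spot. The score was made by the authors with Space Ranger. The score alone was used.

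The 5 members, the lists and the tests were chosen with earlier results of these data known. Spots under 250 genes or 500 UMIs were removed. Within-section standardized values of 3000 variable genes, without 149 genes (members, lipid list and cell lists other than panel genes), gave 10 principal components, a graph of 20 neighbours and 17 Leiden clusters at resolution 0.5 (leidenalg 0.10.2). A cluster was named where its marker panel had a mean of at least 0.1 and at least 3 raised genes, and led the next panel by 0.5, or by 0.1 with a panel gene among the leading 10 genes by fold. Clusters with more leading genes of another panel than of their own kept their number. These thresholds were set after the clusters were seen, and 222 spots stayed unnamed. No doublet caller was run, since spots hold several cells. Zones from the highest marker score matched in 84.4% of 17634 spots.

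UMIs were summed per section and zone, and edgeR 4.0.16 (R 4.3.3; TMM, glmQLFit, glmQLFTest, age as the only term, all 6 sections) compared P21 and aged with adult. Genes kept by filterByExpr and detected in over 10% of the zone's spots at either age and in at least 10% of all spots were tested. Adjusted p are Benjamini-Hochberg values over those genes. SE is the log2 fold change divided by the square root of F. All 5 members were tested in every zone. The named list genes were those called in at least 4 of 6 zones in a comparison, and for each member the 3 genes with the highest r. Some list genes that met this rule are not reported here. The fits were tested on simulated data with few changed genes and the spread of each gene set from its level. For aged against adult a change of 2-fold was recovered for 100% of 125 changed genes among 11315 in the whole section. It was recovered for 98.7% of 157 among 11225 in CTX and 92.1% of 165 among 11041 in FT. In the real aged FT 3215 genes were called, a setting that was not simulated. P-values of the whole-section and zone fits rest on the spread between sections of an age, pooled over the 3 ages and moderated across genes. Those of the model of all 6 zones rest on the spread of zone sums within sections, so zones of 1 section were counted as separate observations. The sections of an age correlated at r = 0.995 to 0.996 and were not duplicates. Alternatives were DESeq2 1.42.0, other scalings, filters and zones, a replicate block and each section left out. Sections were not matched by their level in the brain, and images were not analysed here.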

Additional observations from a re-analysis of the deposited data

Results flagged for a closer look

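The age difference of 5 genes in aged against adult sections, and of 4 genes in P21 against adult sections, differed between the 6 zones by the interaction test in edgeR, which 47.5% and 11.4% of all genes also passed. In aged against adult sections the FT difference exceeded the mean of the other 5 zones by 1.44 for Apoe, 0.90 for Clu, 1.67 for Apod, 1.09 for Abca1 and 0.73 for Lcat on the log2 scale, with adjusted p of the interaction of 3.61e-12, 2.65e-10, 7.76e-10, 4.19e-09 and 6.39e-04. In P21 against adult sections it was -0.37 for Apoe, -0.43 for Clu, -0.13 for Apod and -0.70 for Abca1, with adjusted p of 0.00226, 3.87e-05, 0.00632 and 1.54e-05. For Apod at P21 the contrast of FT with the other zones had an adjusted p of 0.618.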

How the results depend on the processing

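Of 11 pairs of a gene and a zone called higher in aged sections, Apoe in FT, HY and STR, Apod in FT and STR, and Clu and Abca1 in FT were called in every alternative run. Apoe in TH was lost with border spots left out (0.57) and Lcat in FT with zones by marker score (0.44), and the other losses stand beside the results. The count of P21 pairs called lower, 1, was 0 with no filter on low counts and 0 with border spots left out, and 0 to 2 with 1 section left out. In the whole section, aged against adult, Clu was 0.0166 with DESeq2 and 0.10 with library size only, and Abca1 was 0.08 with library size only. With 1 section left out, these ranged from -0.0396 to 0.0375 for Clu, -0.0604 to 0.0016 for Abca1, -0.24 to 0.017 for Lcat and 0.58 to 0.65 for Apoe, and Apod at P21 from -0.68 to -0.46. The FT difference at P21 with zones by marker score was -0.24 for Apoe and -0.24 for Clu, and with 1 section left out it ranged from -0.40 to -0.31 for Apoe and -0.27 to 0.0168 for Apod. The cause of these moves was not tested.

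Signs of single zone values changed only where they were not called. With library size only, Apoe in STR at P21 was -0.0223 and Apod in HP at P21 0.0199. With zones by marker score, Apoe in STR at P21 was -0.0044, and in aged sections Clu in HY was -0.0381, Abca1 in HY -0.0356 and Lcat in TH -0.0112. With border spots left out, Apoe in STR was -0.0033, Apod in HP 0.0771 and Lcat in STR 0.0701 at P21, and Clu in HY was -0.0039, Apod in HP -0.087, Abca1 in HY -0.0878 and Lcat in TH -0.0452 in aged sections. The P21 ratio of FT over other zones was then -0.0926 for Clu and -0.0252 for Abca1. Of 60 values of this ratio under alternatives, over all ages, 46 moved by more than the SD of the 2 sections and 2 changed sign. Abca1 in aged HY was -0.0001 with DESeq2 and -0.0188 with no filter. Same-numbered sections of different ages deviated with correlations of 0.02, -0.04 and -0.17, so the numbers do not pair them. A replicate block changed no call and gave 0.0083 for Apod in HP at P21 and -0.0031 for Abca1 in aged HY.

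With 1 section left out the ranges were, at P21, -0.0083 to 0.13 for Apoe in HY, -0.0296 to 0.0489 in STR and -0.0148 to 0.13 in TH, -0.36 to 0.0728 for Apod in CTX, -0.20 to 0.23 in HP and -0.53 to 0.0298 in STR, and -0.23 to 0.0309 for Lcat in STR and -0.058 to 0.14 in TH. In aged sections they were -0.0882 to 0.0144 for Abca1 in CTX and -0.13 to 0.10 in HY, -0.0602 to 0.0277 for Clu in CTX and -0.0168 to 0.0485 in HY, and -0.37 to 0.10 for Lcat in HY and -0.17 to 0.23 in TH.

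Of the 92 counts of all genes called under alternatives that kept all sections, 10 moved by over 1.5 times. The 92 include counts for CTX, HP, TH, HY and STR with cluster 10 added to FT, which left those zones unchanged and could not move. With no filter the counts went from 571 to 1481 (whole section, P21), 1017 to 6203 (whole, aged), 520 to 1007 (CTX, P21), 1135 to 3641 (CTX, aged), 752 to 1227 (HP, P21) and 3215 to 6981 (FT, aged). With zones by marker score FT in aged sections went from 3215 to 1887. With border spots left out, HY at P21 went from 433 to 281 and STR at P21 from 428 to 231, and with DESeq2 STR at P21 went to 233. With 1 section left out 9 of 84 moved, the lowest being 27 for HY at P21. With library size only, whole-section calls in aged sections went from 421 higher and 596 lower to 684 and 322, and FT calls at P21 from 593 and 443 to 434 and 682. MV, RT, cluster 10 and the hippocampal subzones were not run under the alternatives. The shallowest FT sums held 118 UMIs of Abca1 and 104 of Lcat.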
